A study of Rattus norvegicus with 9 samples.

Results

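The annexins are a family of proteins that bind acidic membrane phospholipids in the presence of calcium. The 8 members described here, Anxa1, Anxa2, Anxa3, Anxa4, Anxa5, Anxa6, Anxa7 and Anxa11, were chosen by gene name from a table of 30315 loci, taking the locus with the highest mean where a name repeats. All 8 were found, and all 8 passed the filter of a mean of at least 1 FPKM (fragments scaled by transcript length and by the number of mapped fragments) that left 14338 loci for testing.

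Values come from RNA of the renal outer medulla of 9 rats (strain MCW SS, salt-sensitive), which gave 1 library each, with 3 rats in each of 3 groups. Rats labelled 0.4% salt were kept on a 0.4% NaCl diet, underwent the same surgery as the rest, and gave tissue just before oligonucleotide and high-salt diet would have begun. Rats labelled HS_SCR ate 4% NaCl for 7 days and were given a scrambled GapmeR, an antisense oligonucleotide, in the kidney at 4 mg/kg. Rats labelled HS_DT ate the same diet and were given GapmeRs against Dnmt3a, a DNA methyltransferase, and Tet3, which oxidises methylated cytosine, at 2 mg/kg each. HS_SCR and 0.4% salt differ in diet, oligonucleotide and time of collection at once, and these cannot be told apart. The labels name neither sex nor age.

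Each annexin has a conserved core of calcium-binding repeats and a variable amino-terminal tail that binds partner proteins. Anxa1 is known as a glucocorticoid-induced mediator that acts through formyl peptide receptors, and Anxa2 forms a tetramer with S100a10 that binds plasminogen activator at the cell surface. Several members gather at damaged plasma membrane, and others act in exocytosis and membrane traffic; in the kidney, epithelial, endothelial and myeloid cells all contain annexins.

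The transcripts of both targeted genes went against the HS_DT label: Dnmt3a was at 8.72, 10.3 and 11.02 FPKM in the libraries labelled HS_DT against 7.05, 5.75 and 10.3 in HS_SCR, and Tet3 at 7.62, 8.54 and 7.92 against 5.04, 5.47 and 8.20. The log2 differences of 0.37 ± 0.18 (SE; limma adjusted p = 0.303) and 0.34 ± 0.15 (adjusted p = 0.271) did not pass. In 0.4% salt Dnmt3a was at 13.4, 12.2 and 12.9 FPKM and Tet3 at 9.38, 8.47 and 9.64. From 0.4% salt to HS_SCR, Dnmt3a fell by a called log2 change of -0.70 ± 0.18 (limma adjusted p = 0.0367). Tet3, at -0.51 ± 0.15 (adjusted p = 0.0599), did not pass. Between HS_DT and 0.4% salt they were at -0.33 ± 0.18 and -0.17 ± 0.15, and neither passed. HS_DT is used below for the libraries labelled so. HS_SCR replicate 3 stood apart on the second principal component, at -51.5 against -2.34 to 24.0 in the other libraries. The rat numbers in the labels form a lower and a higher series that the labels do not explain: all 0.4% salt rats, HS_SCR replicate 3 and HS_DT replicate 3 are in the higher one. Depth is unknown; a relative depth estimated from low loci ran from 0.759 to 1.37. In tissue RNA, fewer cells of a type and less RNA per cell cannot be told apart.

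Promoter sequences are shown for 4 members: Anxa1, Anxa2 and Anxa7, whose rise between 0.4% salt and HS_SCR kept its call with any 1 library left out, and Anxa5, which did not pass. Each run is the 250 bases upstream of the gene's start in RefSeq (build GRCr8), 5′ to 3′ on the gene's strand: Anxa1 at chr1:227303733-227303982 (minus strand), Anxa2 at chr8:78986002-78986251 (plus), Anxa7 at chr15:3870790-3871039 (plus) and Anxa5 at chr2:121272697-121272946 (minus). Capitals mark the 4 motifs searched, on either strand: the TATA box (letters TATAAA), the CCAAT box (its own letters), the GC box (letters GGGCGG) and the AP-1 site (letters TGANTCA).
Anxa1: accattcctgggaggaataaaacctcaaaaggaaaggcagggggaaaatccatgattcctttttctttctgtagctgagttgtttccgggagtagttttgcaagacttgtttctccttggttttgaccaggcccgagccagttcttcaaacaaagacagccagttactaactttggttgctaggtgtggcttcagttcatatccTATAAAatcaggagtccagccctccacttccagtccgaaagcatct
Anxa2: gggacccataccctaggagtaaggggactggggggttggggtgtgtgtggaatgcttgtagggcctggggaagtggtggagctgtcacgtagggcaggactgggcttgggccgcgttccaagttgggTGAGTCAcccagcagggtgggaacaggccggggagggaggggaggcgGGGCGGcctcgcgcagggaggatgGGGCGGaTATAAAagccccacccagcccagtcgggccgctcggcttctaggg
Anxa7: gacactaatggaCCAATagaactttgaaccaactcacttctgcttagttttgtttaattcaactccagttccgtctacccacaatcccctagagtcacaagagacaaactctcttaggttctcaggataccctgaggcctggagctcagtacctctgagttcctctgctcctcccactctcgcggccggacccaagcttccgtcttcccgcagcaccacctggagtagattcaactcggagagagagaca
Anxa5: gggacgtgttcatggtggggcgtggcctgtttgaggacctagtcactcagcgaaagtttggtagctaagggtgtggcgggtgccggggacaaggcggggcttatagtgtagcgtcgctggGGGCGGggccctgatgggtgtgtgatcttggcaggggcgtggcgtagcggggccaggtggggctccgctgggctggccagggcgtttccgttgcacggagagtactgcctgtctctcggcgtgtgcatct
TATAAA was found in the windows of Anxa1 and Anxa2, beginning 46 and 45 bases before the start, and in 12.9% of the 33469 promoters of the same length. The Anxa2 window also held TGANTCA, which 6.34% of promoters hold. GGGCGG was found in Anxa2, Anxa3, Anxa4, Anxa5 and Anxa11 (30.5% of all promoters), and CCAAT in Anxa4 and Anxa7 (34% of all). G and C made up 45.2% of the Anxa1 window, 50.8% of Anxa7, 65.2% of Anxa5 and 67.2% of Anxa2, against a median of 51.2%. Of the 8 members, 7 had an entry among these promoters, the exception being Anxa6. A match describes the letters only.

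The annexins are abundant transcripts here. In 0.4% salt, Anxa5 had the highest level per length, at 325 ± 16.98 FPKM (SD, n = 3), followed by Anxa1 (293 ± 17.3), Anxa2 (242 ± 16.2), Anxa11 (158 ± 10.6), Anxa4 (144 ± 4.02), Anxa6 (88.8 ± 3.46), Anxa7 (55.3 ± 1.87) and Anxa3 (29.8 ± 1.74). This order was the same in all 3 libraries of 0.4% salt, although the ranges of Anxa5 and Anxa1, and of Anxa11 and Anxa4, overlap. By mean over all 9 libraries, Anxa1 and Anxa5 lay at percentile 98.4 of tested loci and Anxa3, the lowest member, at percentile 82.2.

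Between HS_SCR and 0.4% salt, 6 of the 8 annexins rose (Anxa1, Anxa2, Anxa3, Anxa4, Anxa7 and Anxa11), by 1.23 to 1.75 times in mean FPKM, and none fell. Across all tested loci 8.2% were called higher and 4.88% lower, 13.1% in all. The same 6 members had all 3 HS_SCR libraries above all 3 of 0.4% salt, which 19.1% of loci did. The median log2 change of the 8 members was 0.52, against 0.02 over all tested loci. Between HS_DT and HS_SCR, 7 of 8 means were lower in the libraries labelled HS_DT, with a median log2 change of -0.37 against 0.00 over all loci, and none passed the test.

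**Figure D1:**
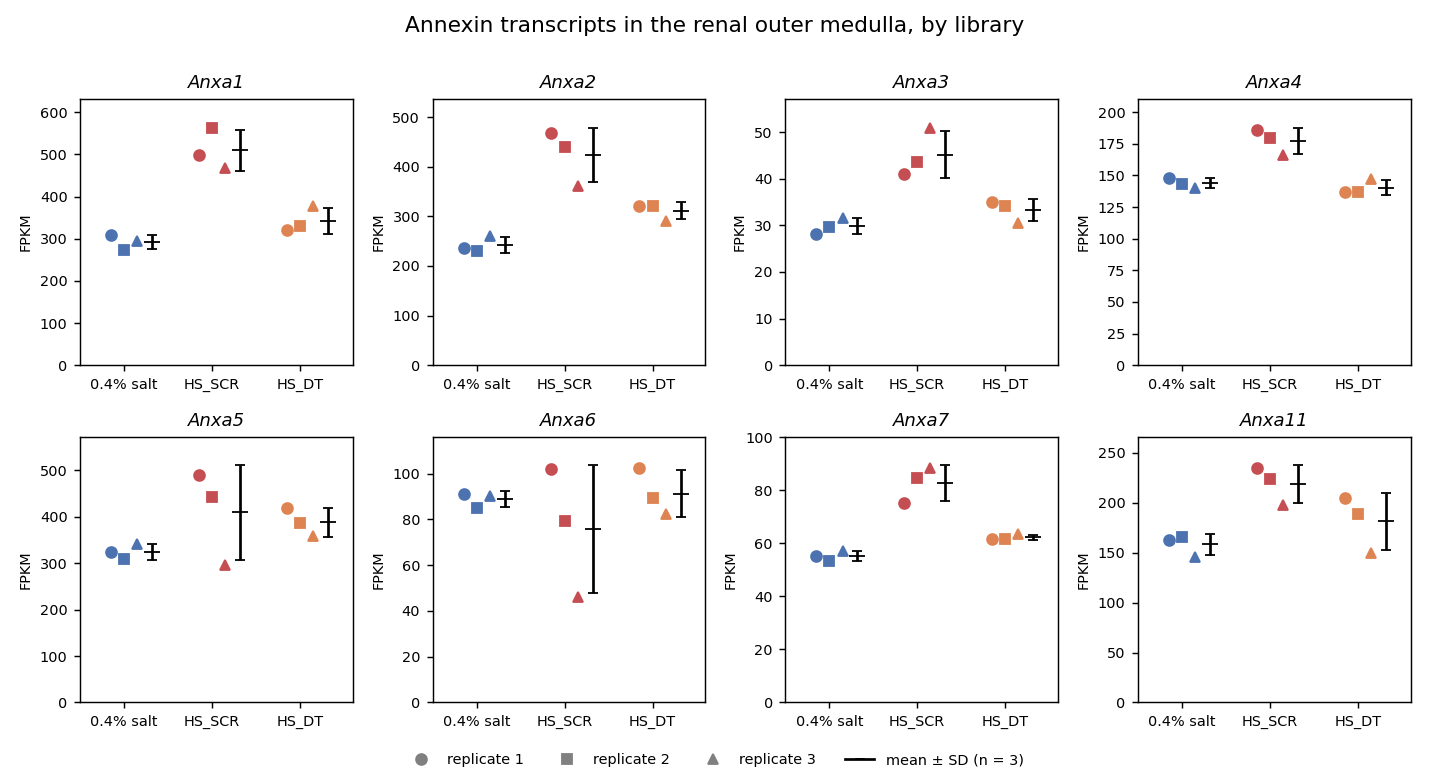
FPKM of the 8 annexins in each library (points), with group means and SD (n = 3 per group); each panel has its own linear axis starting at 0. Anxa1, Anxa2, Anxa3, Anxa4, Anxa7 and Anxa11 have every HS_SCR point above every 0.4% salt point, while in Anxa5 and Anxa6 HS_SCR replicate 3 is the lowest point of all.

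Anxa1 (rn5 chromosome 1, 245192876 to 245208910), the glucocorticoid-responsive member, was at 308, 274 and 296 FPKM in 0.4% salt, 498, 564 and 468 in HS_SCR, with 319.6, 331 and 378 in the libraries labelled HS_DT. The HS_SCR libraries were above all others, and the HS_DT libraries were above those of 0.4% salt with no overlap. Its log2 change from 0.4% salt to HS_SCR was 0.80 ± 0.10 (SE; limma adjusted p = 0.00638). From HS_SCR to HS_DT it was -0.57 ± 0.10 (limma adjusted p = 0.0644), which did not pass, and between HS_DT and 0.4% salt 0.23 ± 0.10 (adjusted p = 0.680).

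Anxa2 (chromosome 8, 80014318 to 80050876), the S100a10-binding member, was at 236, 229.6 and 260.5 FPKM in 0.4% salt, 469, 439.9 and 362 in HS_SCR, with 322, 320.3 and 292 in HS_DT. All 3 groups were apart, with HS_DT in the middle. The change to HS_SCR was 0.80 ± 0.11 on the log2 scale (limma adjusted p = 0.00715), and the difference of HS_DT from HS_SCR was -0.44 ± 0.11 (limma adjusted p = 0.0998). RefSeq names 8 Anxa2 pseudogenes and 4 of Anxa7, so how the reads of these 2 genes were shared with near-identical copies is uncertain.

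Anxa7 (chromosome 15, 8355609 to 8383612), also called synexin and linked to membrane fusion and exocytosis, was at 55.2, 53.5 and 57.2 FPKM in 0.4% salt, 75.4, 84.5 and 88.6 in HS_SCR, with 61.6, 61.9 and 63.4 in HS_DT. Its 3 groups were also apart, in the same order, and the SD of the HS_DT libraries was 0.989 FPKM. The log2 change to HS_SCR was 0.57 ± 0.08 (limma adjusted p = 0.00690), and that of HS_DT from HS_SCR -0.40 ± 0.08 (limma adjusted p = 0.0644).

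Anxa3 (chromosome 14, 14305732 to 14368232), the least abundant member, known from myeloid cells, was at 28.2, 29.7 and 31.6 FPKM in 0.4% salt, 41.1, 43.5 and 50.9 in HS_SCR, with 34.9, 34.2 and 30.6 in HS_DT. HS_SCR replicate 3 was the highest library. The change to HS_SCR was 0.58 ± 0.10 on the log2 scale (limma adjusted p = 0.0119); it lost its call without 0.4% salt replicate 1 (adjusted p = 0.0546) or replicate 2 (0.0552), at 0.54 and 0.58. The difference of HS_DT from HS_SCR was -0.43 ± 0.10 (limma adjusted p = 0.0857).

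Anxa4 (chromosome 4, 183108896 to 183164907), abundant in polarised epithelia, was at 148, 144 and 140.1 FPKM in 0.4% salt, 186, 179.9 and 166 in HS_SCR, with 137, 137 and 147 in HS_DT. The HS_SCR libraries were the highest, and those of HS_DT overlapped 0.4% salt. It rose by 0.30 ± 0.07 on the log2 scale (limma adjusted p = 0.0366), the smallest called change, and HS_DT differed from HS_SCR by -0.33 ± 0.07 (limma adjusted p = 0.0797).

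Anxa11 (chromosome 16, 3833096 to 3878320), which binds S100a6 and the calcium sensor Pdcd6, was at 163, 166 and 146 FPKM in 0.4% salt, 235, 224 and 197 in HS_SCR, with 205, 189 and 149.8 in HS_DT. HS_DT overlapped both other groups, with replicate 3 lowest. The log2 change to HS_SCR was 0.46 ± 0.13 (limma adjusted p = 0.0486), next to the threshold of 0.05. The calls of Anxa4 and Anxa11 were both lost without any 1 of the 0.4% salt libraries, HS_SCR replicate 1 or 2, or HS_DT replicate 1 or 2, at adjusted p of 0.0616 to 0.117 for Anxa4 and 0.0538 to 0.130 for Anxa11. With quantile scaling the changes of Anxa4 and Anxa11 were 0.15 and 0.32 (limma adjusted p = 0.165 and 0.0945). Anxa1, Anxa2, Anxa3 and Anxa7 kept their calls on that scale, at 0.52, 0.59, 0.51 and 0.46. Anxa5 and Anxa6 were at 0.072 and -0.45 and did not pass. With rat-number series in the model, 4 of the 8 annexins were called: Anxa4 and Anxa11 lost their calls, at 0.29 and 0.26 (limma adjusted p = 0.0875 and 0.142), while Anxa1, Anxa2, Anxa3 and Anxa7 kept theirs.

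Anxa5 and Anxa6 did not pass, and in both HS_SCR replicate 3 was the lowest library. Anxa5 (chromosome 2, 142777621 to 142808400), the phosphatidylserine-binding member used as a marker of dying cells, was at 324, 308 and 342 FPKM in 0.4% salt, 490.0, 443 and 295 in HS_SCR, with 419.6, 387 and 358 in HS_DT. Its change to HS_SCR was 0.30 on the log2 scale (95% interval -0.10 to 0.70; limma adjusted p = 0.264) and without HS_SCR replicate 3 it was 0.52 (limma adjusted p = 0.00572). With rat-number series in the model it was 0.026 (limma adjusted p = 0.919). The HS_DT libraries were all above those of 0.4% salt, at 0.26 ± 0.17 (limma adjusted p = 0.789).

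Anxa6 (chromosome 10, 40092931 to 40148452), the longest annexin, which has a duplicated core, was at 91.3, 84.9 and 90.3 FPKM in 0.4% salt, 102, 79.2 and 46.1 in HS_SCR, with 102, 89.4 and 82.2 in HS_DT. The HS_SCR values ran from the lowest library of all (replicate 3) to one next to the highest (replicate 1). The change of -0.30 ± 0.24 (limma adjusted p = 0.428) became 0.017 without HS_SCR replicate 3. It was -0.69 with rat-number series in the model (limma adjusted p = 0.0720). Within the higher series alone, which sets HS_SCR replicate 3 against the 0.4% salt libraries, it was -0.93.

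**Figure D2:**
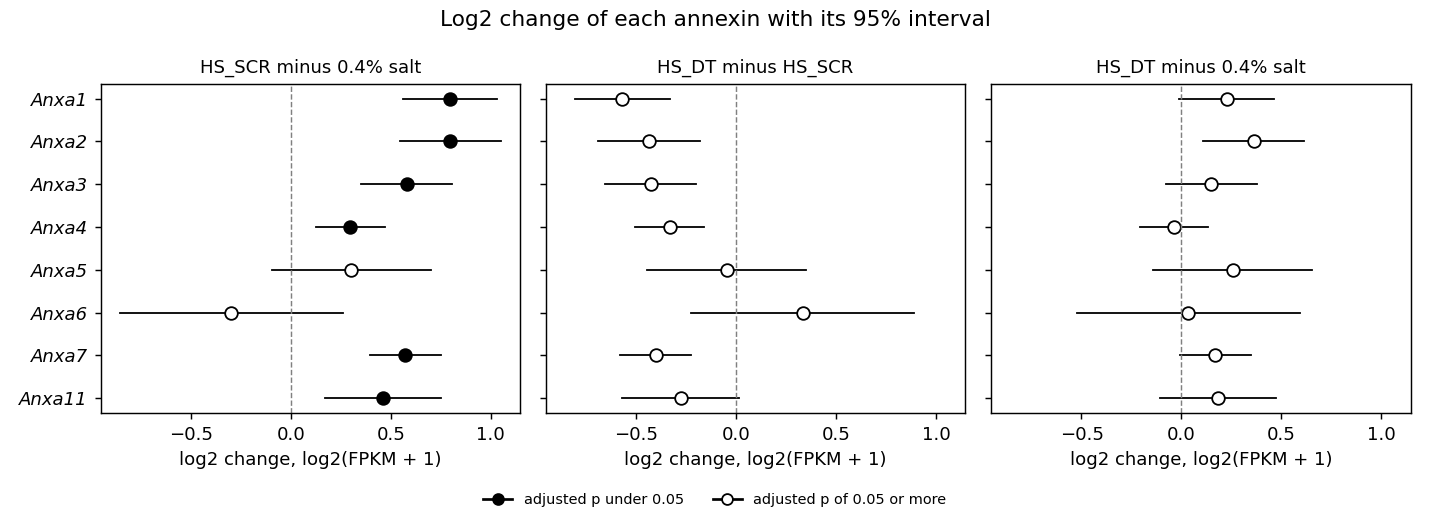
Log2 changes of the 8 annexins in the 3 comparisons (limma on log2(FPKM + 1), bars are 95% intervals, filled points called at an adjusted p under 0.05). Only HS_SCR minus 0.4% salt has filled points, 6 of them; the intervals of Anxa5 and Anxa6 are the widest.

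Between HS_DT and HS_SCR, 0 of 8 members were called by limma, as was 1 of all tested loci (0.00697%, lower). At an unadjusted p under 0.05 there were 5 (Anxa1, Anxa2, Anxa3, Anxa4 and Anxa7), against 19.1% of loci, and the same 5 had all HS_DT libraries below all HS_SCR libraries, as 12.5% of loci had. The other 3 were Anxa11 at -0.28 ± 0.13 on the log2 scale, Anxa5 at -0.05 ± 0.17 and Anxa6 at 0.33 ± 0.24 (limma adjusted p = 0.284, 0.908 and 0.489), and their ranges overlap. Without HS_SCR replicate 3, Anxa1, Anxa2, Anxa3, Anxa4 and Anxa7 passed, at log2 changes of -0.63, -0.55, -0.34, -0.38 and -0.35, and without HS_SCR replicate 1 Anxa7 passed. With rat-number series in the model, Anxa1, Anxa2 and Anxa7 passed (limma adjusted p = 0.0423, 0.0423 and 0.0412). Within the lower series alone, 2 libraries against 2, the changes of the same 5 were -0.70, -0.50, -0.28, -0.42 and -0.37 and none passed, the smallest adjusted p being 0.115.

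Between HS_DT and 0.4% salt no member was called, and no locus was (0%). At an unadjusted p under 0.05 there was 1 member, Anxa2 (0.36 ± 0.11 on the log2 scale), against 7.49% of loci. The other 7 changes ran from -0.04 ± 0.07 (Anxa4) to 0.26 ± 0.17 (Anxa5). The libraries labelled HS_DT lay above all 0.4% salt libraries in Anxa1, Anxa2, Anxa5 and Anxa7, as in 14.2% of loci. The 3 comparisons share libraries, so their values are not independent.

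Read as a sum, the 8 annexins came to 1336 FPKM with an SD of 40.6 over the 3 libraries of 0.4% salt, 1942 ± 233 for HS_SCR and 1551 ± 50.97 for HS_DT. As a share of all FPKM that is 0.183% ± 0.0141, 0.232% ± 0.0114 and 0.211% ± 0.00294 (SD, n = 3). Within the sum, Anxa1 took 21.9% at 0.4% salt against 26.4% for HS_SCR, and Anxa2 took 18.1% against 21.8%. Anxa5 took 24.3% against 20.8%, and Anxa6 6.65% against 3.82%. Anxa1 was the first in all 3 HS_SCR libraries and Anxa5 in all 3 of 0.4% salt. In HS_DT the first place went to Anxa5 in 2 libraries and to Anxa1 in replicate 3. In HS_SCR replicate 3 Anxa6 was the lowest of the 8.

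**Figure D3:**
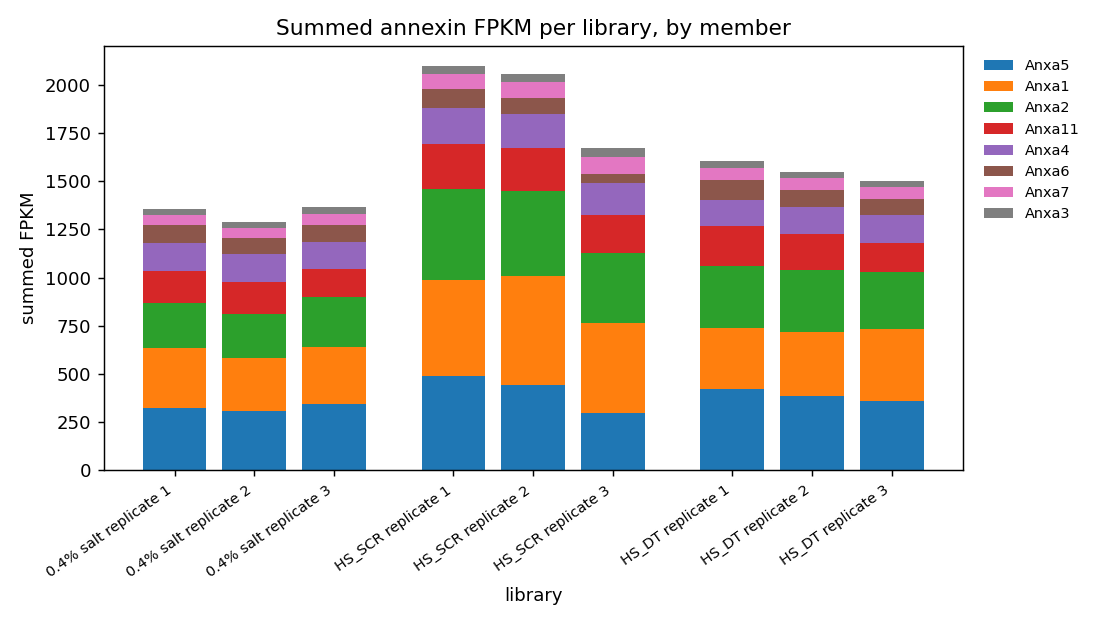
Summed FPKM of the 8 annexins in each library, stacked by member, on a linear axis from 0. HS_SCR replicates 1 and 2 reach 2096 and 2057 FPKM, HS_SCR replicate 3 1674, and the other 6 libraries stay between 1289 and 1602.

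The members did not move as a single block. Of the 28 pairs, 14 had a Pearson r above 0.7 over the 9 libraries (log2 scale), as a description, since the points share group and library. Anxa3 and Anxa7 were closest, at r = 0.96. Anxa5 and Anxa6 moved together within groups: the r of their deviations from group means was 0.98, against 0.57 over the libraries. Anxa3 and Anxa4 went opposite ways within groups, at -0.99, against 0.70 over the libraries. The genes most like each member by r over the 9 libraries were Rps15 and Rplp1 for Anxa1 (0.99 for both), Fam110d and Smn1 for Anxa2 (0.998 and 0.99), Fstl3 and Zfat for Anxa3, Tsr3 and Creb3 for Anxa4, Nop58 and Bop1 for Anxa5, Gal3st1 and Galnt1 for Anxa6, Ccl6 and Hmg20b for Anxa7, and Pitpnb and Mfsd5 for Anxa11.

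The calcium-binding protein partners of annexins had 8 tested members of 9 listed. Between HS_SCR and 0.4% salt 3 of them rose, none fell, and the other 5 did not pass. Over all tested loci 8.2% were called higher and 4.88% lower. The list's median was 0.39 on the log2 scale, against 0.02 over all loci. S100a11, the partner of Anxa1, was at 1357, 1272 and 1466 FPKM in 0.4% salt, 2480, 3174 and 2433 in HS_SCR, with 1758, 1740.0 and 1683 in HS_DT. S100a10, the partner of Anxa2, was at 433, 391 and 385, then 832, 877 and 625, then 529, 523 and 508. In both, the 3 groups were apart with HS_DT in the middle.

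Their log2 changes to HS_SCR were 0.97 ± 0.13 and 0.93 ± 0.13 (limma adjusted p = 0.00638 and 0.00715), and S100a6, a partner of Anxa11, changed by 0.87 ± 0.11 (limma adjusted p = 0.00629). The r of Anxa2 with S100a10 over the 9 libraries was 0.97 (0.71 for deviations from group means), and of Anxa1 with S100a11 0.97 (0.59). Anxa11 with S100a6 had an r of 0.75 (-0.23 within groups) and with Pdcd6 0.78 (0.58), and Anxa7 with Pdcd6 0.45 (-0.86). With quantile scaling the change of S100a6 was 0.34 (limma adjusted p = 0.0620). S100a10 was 1.48 to 1.83 times Anxa2 in 0.4% salt, 1.72 to 1.99 times in HS_SCR and 1.63 to 1.74 times in HS_DT. Sri (sorcin), a partner of Anxa7, had an r of -0.68 with it (-0.48 within groups) and was 1.87 to 2.26 times Anxa7 in 0.4% salt and 1.19 to 1.47 times in HS_SCR. RefSeq names 5 S100a11 pseudogenes.

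**Figure D4:**
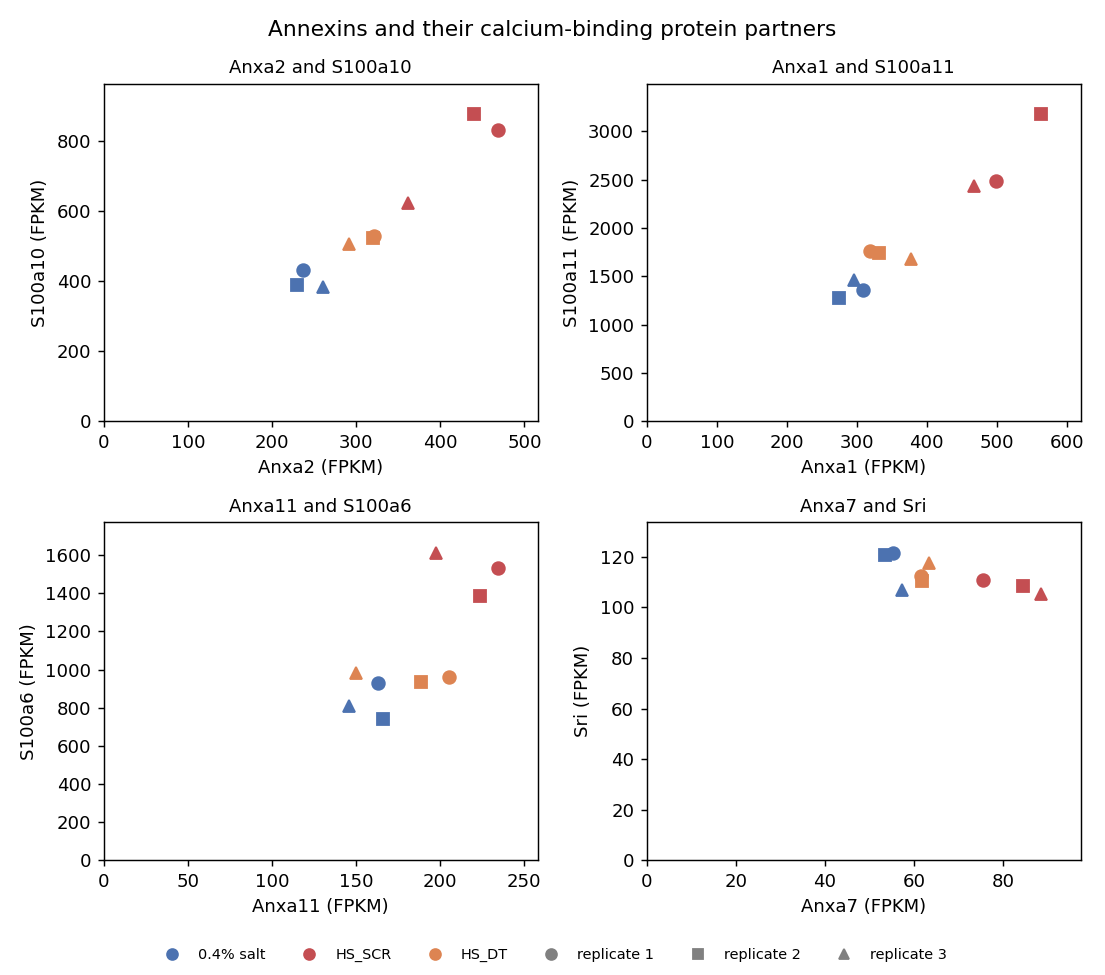
FPKM of 4 annexins against a listed partner in each library, on linear axes from 0, coloured by group. In the Anxa1 with S100a11 and Anxa2 with S100a10 panels the HS_SCR points are the highest on both axes; in the Anxa7 with Sri panel Anxa7 is higher in HS_SCR while Sri is not.

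Other annexins and pathway lists were counted the same way, and in both HS_DT comparisons none of their genes was called. Of Anxa8, Anxa9, Anxa10 and Anxa13, only Anxa8 and Anxa9 were tested, and neither passed. Anxa8 was at 4.13 ± 2.35 FPKM in HS_SCR and 1.35 ± 0.603 in 0.4% salt (log2 change 1.06 ± 0.34; limma adjusted p = 0.0692), with ranges apart. Anxa10 and Anxa13 averaged 0.0742 and 0.0403 FPKM.

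In the plasminogen system, to which Anxa2 and S100a10 belong, 2 of 7 tested genes rose and 1 fell: Plaur, the urokinase receptor, by 0.93 ± 0.11 and Plat, tissue plasminogen activator, by 0.62 ± 0.09 on the log2 scale, and Serpine2, a protease inhibitor, with -0.97 ± 0.20 (limma adjusted p = 0.00566, 0.00723 and 0.0192). Plg itself averaged 0.0217 FPKM. Among 10 tested genes of the formyl peptide receptor, phospholipase and glucocorticoid list, 3 rose and 1 fell. Pla2g2a, a secreted phospholipase, changed by 1.17 ± 0.20, Alox5ap, which serves leukotriene synthesis, by 0.94 ± 0.14, Tsc22d3, a glucocorticoid-induced gene, by 0.91 ± 0.20, and Nr3c1, the glucocorticoid receptor, by -0.47 ± 0.08. None of these is a formyl peptide receptor. Fpr3, the only such receptor tested, averaged 0.326 FPKM in 0.4% salt, 1.25 in HS_SCR and 1.84 in HS_DT. Its change to HS_SCR was 0.67 ± 0.29 (limma adjusted p = 0.155), with overlapping ranges. Between HS_DT and 0.4% salt it was 1.09 ± 0.29 (limma adjusted p = 0.434), with ranges apart, and neither passed. Fpr1 averaged under 1 FPKM and was not tested. The membrane repair list had 11 tested genes, of which Myof (myoferlin) rose by 0.41 ± 0.10 (limma adjusted p = 0.0386) and 10 did not pass. Over all tested loci 8.2% were called higher and 4.88% lower. For membrane repair, 1 of 11 is near that share and is no result about the list. Its 11 means were all higher, with a median log2 change of 0.20 against 0.02 over all loci.

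Several of these list calls were lost with 1 library left out. Myof lost its call without any 1 of the 0.4% salt libraries, HS_SCR replicate 2 or HS_DT replicate 2 (limma adjusted p = 0.0698 to 0.122), and in 12 of 24 alternatives in all. Tsc22d3 and Serpine2 lost theirs without any 1 of the 0.4% salt libraries or HS_SCR replicate 2 (limma adjusted p = 0.0648 to 0.0900 and 0.0525 to 0.0662), Nr3c1 without 0.4% salt replicate 1 or 2 (0.0603 and 0.0598), and Pla2g2a without 0.4% salt replicate 1 (0.0535). Between HS_DT and HS_SCR values that did not pass included S100a6 at -0.65 ± 0.11 and S100a11 at -0.63 ± 0.13 on the log2 scale (limma adjusted p = 0.0644 and 0.0648), Tsc22d3 at -0.93 ± 0.20 (0.0741) and Plat at -0.35 ± 0.09 (0.0986).

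**Figure D5:**
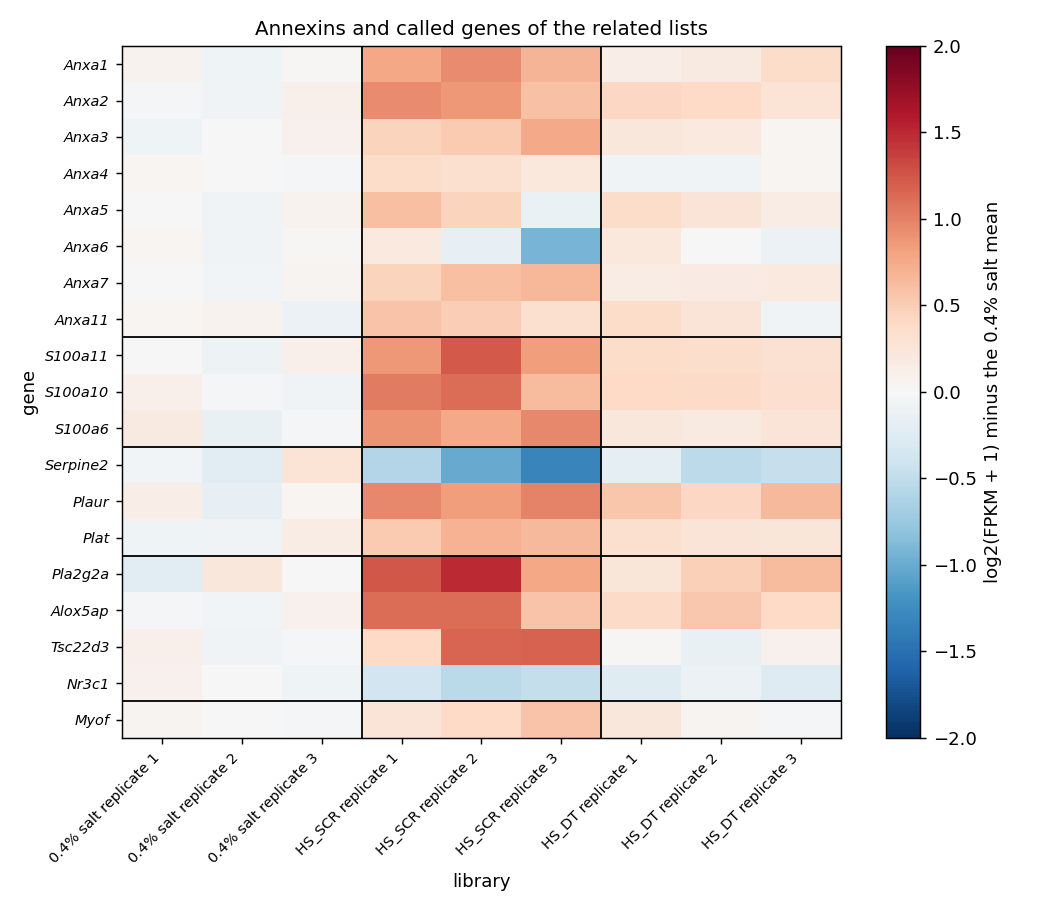
Difference of each library from the 0.4% salt mean, in log2(FPKM + 1), for the 8 annexins and the called genes of the related lists (lines separate groups and lists). The HS_SCR columns are above 0 for most annexins, while Anxa6 in replicates 2 and 3 and Anxa5 in replicate 3 are below it; Serpine2 and Nr3c1 are below 0 in all HS_SCR columns.

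Markers of several cell types also differed between HS_SCR and 0.4% salt, some higher and some lower, and their part in these results was not tested. In that comparison 8.2% of all tested loci were called higher and 4.88% lower. Summed macrophage and myeloid markers were at 1778 to 2061 FPKM in 0.4% salt, 2973 to 4461 in HS_SCR and 2895 to 3417 in HS_DT. Lyz2 alone was at 1006 to 1169, 1597 to 2423 and 1583 to 1852 FPKM of these. Of the tested markers, 7 of 10 rose between HS_SCR and 0.4% salt. Tubular injury markers summed to 5767 to 7343, 9638 to 17228 and 7059 to 8684 FPKM, and 5 of 10 rose. Most of that sum was Spp1, at 4798 to 5965, 7904 to 13596 and 5960 to 7120 FPKM. Havcr1 did not pass (limma adjusted p = 0.222), and its ranges overlap. Proximal tubule markers, 4 of 9 of which fell, summed to 591 to 1754, 79.8 to 319 and 231 to 1228 FPKM. Thick ascending limb markers fell in 4 of 9, Slc12a1 among them (880.05 ± 124 FPKM in 0.4% salt, 469 ± 15.9 in HS_SCR), and no principal cell (7 tested) or fibroblast and pericyte marker (7 tested) passed. Of endothelial markers 2 of 8 rose, and of erythroid markers 4 of 4. Neutrophil markers summed to 6.91 to 8.95, 77.5 to 448 and 28.7 to 63.0 FPKM, and 2 of 3 tested rose. Of the 5 that were not tested for low means, Mmp8 was at 0.0392 to 0.177 FPKM in 0.4% salt against 0.590 to 3.84 in HS_SCR, Cxcr2 at 0.302 to 0.588 against 0.704 to 1.51, and Camp at 0 to 0.120 against 0.397 to 0.636. Mpo and Ngp, the other two, had at most 0.568 and 0.900 FPKM in any library, and their groups overlap.

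Each annexin was set against the mean log2 level of each of the 9 marker lists, and the list with the largest absolute r over the 9 libraries is given for each, with the r of deviations from group means in parentheses. Anxa1 was closest to neutrophil markers at 0.91 (0.76), Anxa2 to macrophage and myeloid markers at 0.97 (0.89), Anxa7 to tubular injury markers at 0.95 (0.93) and Anxa11 to endothelial markers at 0.87 (0.95). Anxa4 and Anxa5 were closest to erythroid markers, at 0.73 (0.74) and 0.83 (0.84). Anxa3 ran against thick ascending limb markers at -0.92 (-0.68), and Anxa6 against tubular injury markers at -0.75 (-0.88). For several members another list was nearly as close, so the largest r does not assign an annexin to a cell type. Anxa1 had 0.89 with macrophage markers, Anxa2 0.92 with erythroid, Anxa3 0.91 with injury and Anxa11 -0.85 with proximal tubule markers. The levels use tested markers only, which were 3 for neutrophils. Of all 72 pairs of annexin and list, 33 had opposite signs over the libraries and within groups, among them Anxa2 with injury markers at 0.71 (-0.64) and Anxa7 with macrophage markers at 0.81 (-0.39).

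With each library's proximal tubule score in the model, the changes of the 6 called annexins were 0.22 to 0.95 and none passed, nor did any locus. Without 0.4% salt replicate 2 and HS_DT replicate 3, the libraries richest in proximal tubule markers, they were 0.30 to 0.76, and again no annexin and no locus passed.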

How the data were processed

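The authors deposited FPKM for 30315 loci. Per the submitters' processing notes, the tools were Trim Galore (0.2.5) and Cufflinks (2.2.1) with the build rn5; aligner, annotation and scaling: not given in the sources used here. Per the labels' protocols, Trizol was used for RNA and an Illumina NeoPrep instrument for libraries. Libraries were matched to columns by rat number, and 1 further column, identical to HS_DT replicate 3 at 30315 loci, was not used. Fragment counts are not used here, so no counting interval is given.

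Loci averaging 1 FPKM or more (14338) were taken to log2(FPKM + 1) and fitted with limma 3.58.1 (limma-trend, R 4.3.3) in one fit of 3 groups (6 residual degrees of freedom). Folds of low genes are understated on this scale. Tests were two-sided with Benjamini-Hochberg adjustment over all tested loci, and calls use an adjusted p under 0.05. With 3 rats against 3 an exact permutation test could not pass 0.05, and none was run. The members and gene lists were chosen with earlier results of these data known. The rule for naming genes took all 8 members, and for each member the 2 genes with the highest r (mean of at least 5 FPKM). From each list and comparison it took up to 4 called genes with the largest change, or the 2 with the smallest p where none was called. Not all of its picks that did not pass are given values, and Dysf and Cav1 are among those given none. Slc12a1, Sri, Plg, Anxa10, Anxa13, Dnmt3a, Tet3, Pdcd6, Mmp8, Cxcr2, Mpo, Camp, Ngp and Fpr1 stand outside this rule. So do Spp1, Lyz2 and Havcr1. All of these were named with their values seen. Fpr2, not found by name, also stands outside this rule. The labels do not say that replicate numbers pair rats, so the main fit has no block, and a replicate block is among the alternatives. In deviations from group means, same-numbered libraries of different groups correlated above 0.1 in 5 of 9 pairs, against 2 of 18 differently numbered pairs.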

Additional observations from a re-analysis of the deposited data

How the results depend on the processing

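Alternatives were pseudocounts of 0.1 and 0.5, no low-value filter or one at 5 FPKM, median-ratio and quantile scaling, robust moderation, library weights, the 2 groups alone, the replicate block, rat-number series (as a factor, or each series alone; the higher has 1 library of each high-salt group, so its p-values rest on the spread of the 3 libraries of 0.4% salt), the proximal tubule score as a covariate, and each library left out. Leaving out the 2 proximal-tubule-rich libraries and removing the locus-width trend were chosen after seeing the data. Causes of the shifts were not tested. Unknown depth and 3 rats a group limit precision.

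With the replicate block, 5 annexins were called in HS_SCR minus 0.4% salt (Anxa4 lost, adjusted p = 0.0544), 1906 loci there and 0 in HS_DT minus HS_SCR. In HS_SCR minus 0.4% salt (6 annexins, 1874 loci), the proximal tubule score as a covariate and leaving out the proximal-tubule-rich libraries each left 0 annexins and 0 loci, library weights gave 4019 loci and the 2 groups alone 466; leaving out 1 library gave 3 to 7 annexins and 347 to 5188 loci. The calls of Anxa1, Anxa2 and Anxa7 were lost in 2 of 24 alternatives, of Anxa3 in 4, of Anxa4 in 14 and of Anxa11 in 17.

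In HS_DT minus HS_SCR (0 annexins, 1 locus), the minimum mean of 5 FPKM gave 1 annexin and 154 loci, library weights 5 and 1496, and the series as a factor 3 and 422. The count of loci was 3 with no filter, 51 in the higher series alone (1 library against 1), and 0 with quantile scaling, the proximal tubule covariate, without the proximal-tubule-rich libraries and without the width trend; leaving out 1 library gave 0 to 5 annexins and 0 to 2300 loci. In HS_DT minus 0.4% salt (0 and 0), library weights gave 4 annexins and 1805 loci, the minimum mean of 5 FPKM 2 loci, the 2 groups alone 1 and the higher series 7 (1 library against 3); leaving out 1 library gave 0 annexins and 0 to 6 loci.

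Directions turned only for changes that were not called. In HS_DT minus HS_SCR, Anxa5 turned to 0.077 with quantile scaling, 0.28 in the higher series, 0.054 with the proximal tubule covariate and 0.011 without the proximal-tubule-rich libraries, and ran from -0.27 to 0.099 with 1 library left out. There Anxa9 turned to -0.14 with quantile scaling, -0.0040 with library weights and -0.12 in the higher series, and ran from -0.12 to 0.15 with 1 library left out; Anxa8 turned to 0.18 in the lower series and Vps4a to 0.010 in the higher. In HS_SCR minus 0.4% salt, Anxa5 turned to -0.14 in the higher series and Anxa6 ran from -0.55 to 0.017 with 1 library left out. In HS_DT minus 0.4% salt, Anxa6 turned to -0.0067 with quantile scaling, -0.35 with the series as a factor, -0.11 in the higher series and -0.086 with the proximal tubule covariate, and ran from -0.050 to 0.11 with 1 library left out. There Anxa5 turned to -0.021 and Anxa11 to -0.018 with the series as a factor, Anxa11 to -0.078 and Anxa4 to 0.035 in the higher series, and Anxa9 ran from -0.40 to 0.0076 with 1 library left out.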
